A study of Mus musculus with 2 samples.

Results

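Antigen presentation in the cochlea of young mice was followed through 8 genes, selected by symbol among the 27998 genes of the deposited tables. B2m, H2-K1, H2-D1 and Tap1 belong to the class I route, and Cd74, H2-Aa, H2-Ab1 and H2-Eb1 to the class II route. All 8 symbols were found, each on a single Ensembl identifier, and all 8 had unique molecular identifiers (UMIs, the counted RNA molecules) in both libraries. The study measured whole cochlea by single-cell RNA sequencing in 1 group of 2 libraries. Both libraries came from wild-type C57BL/6 mice from the Jackson Laboratory, taken at postnatal day 20, with no treatment named in the labels. The labels give 5 to 8 mice as a pool and trypsin as the means of separating cells. Whether each library had its own animals is not stated, and every p-value below therefore measures only the spread between these libraries, which may be technical.

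Class I molecules consist of a heavy chain and beta-2 microglobulin and display peptides cut in the cytosol on nearly all nucleated cells, to be read by CD8 T cells. Class II molecules pair an alpha and a beta chain, are escorted by the invariant chain to endosomes, load peptides from taken-up material there and are read by CD4 T cells. Class II is known mainly from dendritic cells, B cells and macrophages, although other cells can acquire it under interferon gamma. Macrophages are resident in the cochlea, and the hair cells are its sensory receptor cells.

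B2m encodes the light chain of class I molecules, and H2-K1 and H2-D1 encode classical class I heavy chains. Tap1 encodes a subunit of the transporter that carries peptides into the endoplasmic reticulum. H2-Aa and H2-Ab1 encode the alpha and beta chains of the I-A class II molecule. H2-Eb1 encodes the beta chain of I-E, whose alpha chain C57BL/6 mice do not make. Cd74 encodes the invariant chain. In the GENCODE M21 annotation of GRCm38, 6 of the 8 genes lie within 1.27 Mb of chromosome 17. They are H2-K1 at chr17:33996017-34000347 on the minus strand, Tap1 at chr17:34187553-34197225, H2-Ab1 at chr17:34257689-34269419, H2-Aa at chr17:34282744-34287823 on the minus strand, H2-Eb1 at chr17:34305867-34316674 and H2-D1 at chr17:35262730-35267499. B2m lies apart, at chr2:122147686-122153083. Psmb9, which encodes an immunoproteasome subunit, is the head-to-head neighbour of Tap1 at chr17:34181987-34187764 on the minus strand.

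The upstream sequences of 4 genes are shown because class I and class II genes are known to be regulated through short promoter elements. What part such elements had in the differences between cell classes was not tested. The RefSeq promoter table (GRCm38.p6) held windows for 6 of the 8 genes. Each sequence gives 250 bases upstream of the listed start, 5′ to 3′ on the gene's strand, with motif matches in capitals.
B2m (chr2:122147437-122147686, plus strand): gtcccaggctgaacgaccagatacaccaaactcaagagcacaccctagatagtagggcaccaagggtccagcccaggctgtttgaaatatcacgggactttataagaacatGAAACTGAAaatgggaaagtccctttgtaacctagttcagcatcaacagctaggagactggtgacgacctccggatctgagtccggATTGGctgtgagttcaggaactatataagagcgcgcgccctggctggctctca
H2-K1 (chr17:34000348-34000597, minus strand): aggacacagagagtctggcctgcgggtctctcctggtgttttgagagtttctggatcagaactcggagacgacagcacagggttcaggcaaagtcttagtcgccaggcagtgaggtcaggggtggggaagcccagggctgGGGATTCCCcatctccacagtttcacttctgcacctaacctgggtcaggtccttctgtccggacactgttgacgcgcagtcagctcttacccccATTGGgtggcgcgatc
H2-Aa (chr17:34287824-34288073, minus strand): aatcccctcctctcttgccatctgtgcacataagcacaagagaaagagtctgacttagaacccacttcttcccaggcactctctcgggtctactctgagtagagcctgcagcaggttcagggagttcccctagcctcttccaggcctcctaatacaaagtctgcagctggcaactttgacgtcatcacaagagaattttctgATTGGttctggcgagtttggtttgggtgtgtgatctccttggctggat
H2-Eb1 (chr17:34305617-34305866, plus strand): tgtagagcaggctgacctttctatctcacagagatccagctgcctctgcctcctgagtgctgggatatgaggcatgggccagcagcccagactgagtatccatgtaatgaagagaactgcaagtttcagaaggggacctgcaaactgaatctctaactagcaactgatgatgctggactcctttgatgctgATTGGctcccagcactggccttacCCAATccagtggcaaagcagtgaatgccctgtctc
In all, 3 motifs were searched on both strands of the 250 bases. The first was the kappa B core GGGATTCCC or its reverse complement GGGAATCCC, present in 99 of 32851 promoter windows of the genome (0.301%). The second was the interferon response core GAAANNGAA or TTCNNTTTC, present in 2342 windows (7.13%). The last was the Y box core ATTGG or CCAAT, present in 11120 windows (33.8%). All 6 genes with a window held the Y box core, which is common. The interferon response letters, in the order searched, occurred in B2m, 139 bases before the start. The kappa B letters occurred in H2-K1, 110 bases before the start, and in H2-D1, 170 bases before it. No motif overlapped another. The 2 heavy chain genes carried that element inside a nearly identical stretch of 30 bases, shown with the kappa B letters in capitals.
H2-K1 (chr17:34000428-34000457, minus strand): GGGATTCCCcatctccacagtttcacttct
H2-D1 (chr17:35262924-35262953, plus strand): GGGATTCCCcatctcctcagtttcacttct
The stretches differ by the single substitution A17T, counted from 1 at the 5′ end with the base of H2-K1 first. A match of letters is a description of the window and says nothing of binding.

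After cells with fewer than 300 genes or more than 20% mitochondrial UMIs were removed, with the marked doublets, 1329 cells of library 1 and 640 cells of library 2 remained. Their median depth was 10601 and 6115.5 UMIs. The cells fell into 22 clusters, formed without the 8 genes, and a cluster was named from markers only. The macrophage-like cluster held 19 and 16 cells in libraries 1 and 2, with all 12 macrophage markers raised and C1qa, C1qb and C1qc in the lead. The B lineage-like cluster held 70 cells in library 1 and 1 in library 2, with 9 of 9 markers and Vpreb3, Cd79a and Igll1 in the lead, genes of early B cells. Mesenchyme-like clusters held 485 and 459 cells, and 3 of these 5 clusters also showed 3 or 4 of 9 endothelial markers. Epithelium-like clusters held 176 and 63 cells, and the hair cell-like cluster, with 12 of 13 markers and Ocm and Otof among them, held 48 and 4. Erythroid-like cells (409 and 39) served as a background class. The names are used below without "-like". The libraries shared 2 cell barcodes. Levels are given as CPM, the UMIs of the gene in 1000000 UMIs of the class, library 1 before library 2.

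Among macrophages, B lineage cells, mesenchyme, epithelium and hair cells, the class I genes formed a gradient, highest in macrophages and lowest in hair cells. Summed over the 4 class I genes, macrophages had 6137 and 6011 CPM, and B lineage cells of library 1 had 2879. Mesenchyme had 569 and 631 CPM and epithelium 545 and 657, ranges that overlap. Hair cells had 149 and 27.8 CPM, the latter from a single UMI. Both libraries had macrophages at the top and hair cells at the bottom of these classes, while mesenchyme and epithelium changed places between the libraries. Of the other classes, neutrophil lineage cells had 1450 and 1225 CPM and erythroid cells 284 and 68.0 CPM. Haemoglobin genes took 705746 and 842526 CPM of the erythroid UMIs, which lowers the CPM of every other gene in that class. The 6 neuron-like cells, all of library 1, had 107 CPM, below the hair cells of that library.

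B2m, the light chain, was counted at 3700 and 3395 CPM in macrophages, 1494 in B lineage cells of library 1, 388 and 409 in mesenchyme, 363 and 400 in epithelium and 76.5 and 0 in hair cells. H2-D1 stood at 1595 and 1856 CPM in macrophages, 918 in B lineage cells, 123 and 149 in mesenchyme, 96.6 and 142 in epithelium and 48.3 and 0 in hair cells. H2-K1 stood at 793 and 702 CPM in macrophages, 409 in B lineage cells, 49.2 and 62.6 in mesenchyme, 80.0 and 109 in epithelium and 22.8 and 27.8 in hair cells. In each of these genes both macrophage libraries lay above every library of mesenchyme, epithelium and hair cells. Tap1, the peptide transporter subunit, followed the same outline at lower counts, with 48.6 and 57.7 CPM in macrophages, 57.6 in B lineage cells, 9.34 and 10.4 in mesenchyme, 5.29 and 6.16 in epithelium and 1.34 and 0 in hair cells. The 4 hair cells of library 2 held 36019 UMIs in all, too few for its zeros to be read as absence.

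**Figure D1:**
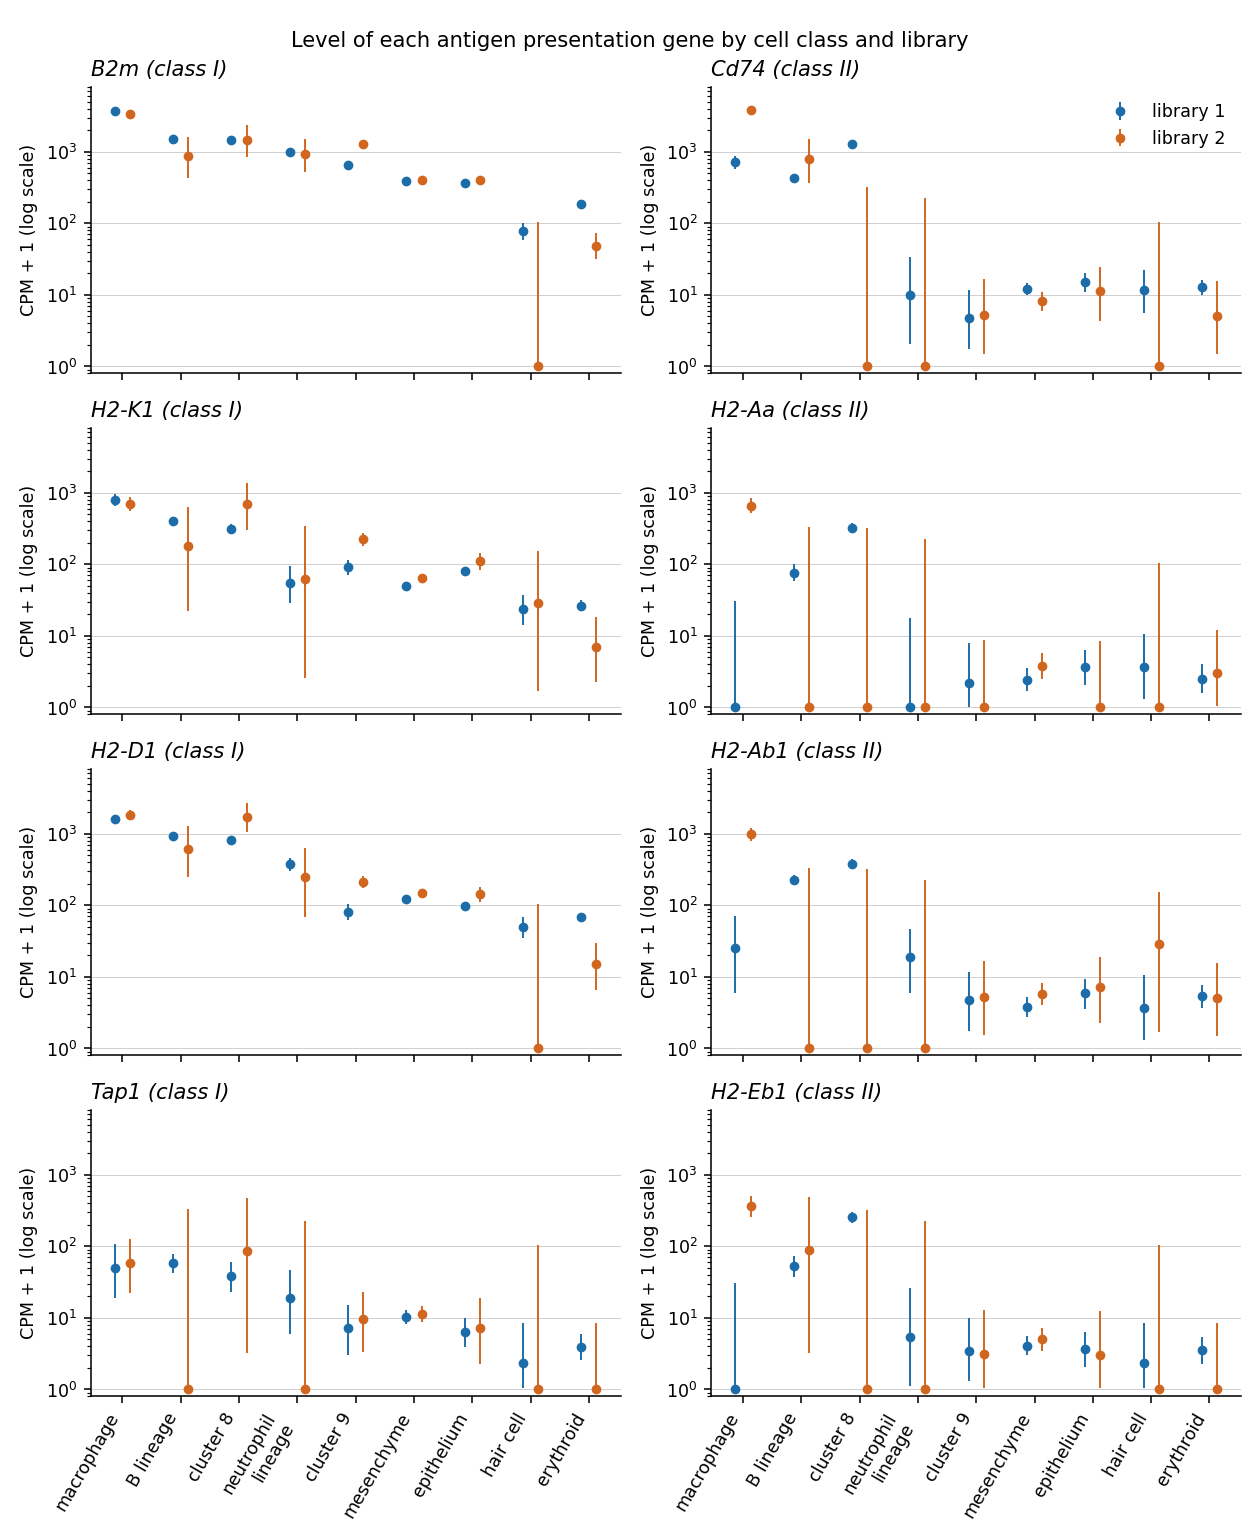
Levels of the 8 genes by cell class, 1 panel per gene. The vertical axis is CPM plus 1 on a log scale, each point is a library, and bars are exact Poisson 95% intervals that cover counting error only. For B2m, H2-K1 and H2-D1 the macrophage points lie above those of mesenchyme and epithelium and the hair cell points of library 1 below them; for the class II genes the macrophage libraries lie far apart.

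Class I levels also varied inside the larger classes. Among the 5 mesenchymal clusters the summed class I level ran from 389 CPM (cluster 2) to 1312 CPM (cluster 3) in library 1, and from 336 to 1333 CPM in library 2, where cluster 11 was highest. Among the epithelial clusters, cluster 20 was highest in both libraries, with 1312 and 961 CPM. Cluster 12, present in library 1 alone, was lowest with 206 CPM. The similar totals of mesenchyme and epithelium are therefore means over clusters that differ among themselves by more than the classes do.

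The class II genes did not follow the gradient of class I. Summed over the 4 genes, macrophages had 737 and 5848 CPM, B lineage cells of library 1 had 787, and mesenchyme, epithelium and hair cells lay between 17.4 and 27.8 CPM in both libraries. Cd74, the invariant chain, was counted at 712 and 3838 CPM in macrophages and 432 in B lineage cells, against 11.2 and 7.19 in mesenchyme, 14.0 and 10.3 in epithelium and 10.7 and 0 in hair cells. The macrophage libraries differed most in the antigen-binding chains themselves. H2-Ab1 stood at 24.3 CPM (3 UMIs) in library 1 and 981 in library 2. H2-Aa stood at 0 and 664 CPM, and H2-Eb1 at 0 and 365. The zeros of library 1 rest on 123516 UMIs, in which 3 counts would be 24.3 CPM. B lineage cells of library 1 had 228 CPM of H2-Ab1, 75.9 of H2-Aa and 52.0 of H2-Eb1.

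Class II made up 10.7% of the UMIs of the 8 genes in macrophages of library 1 (exact binomial 95% interval 8.72 to 13%) and 49.3% in library 2 (46.5 to 52.1%). Over the 3 class II chains and the 2 heavy chains alone, without Cd74, B2m and Tap1, the macrophage shares were 1.01% and 44.0%. B lineage cells of library 1 had a class II share of 21.5% (19.9 to 23.1%). The share was 3.16 and 2.90% in mesenchyme and 4.24 and 2.74% in epithelium. In hair cells of library 1 it was 10.5% (5.70 to 17.3%), from 13 class II UMIs of 124, on a low class I count. Such intervals cover counting error only.

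**Figure D2:**
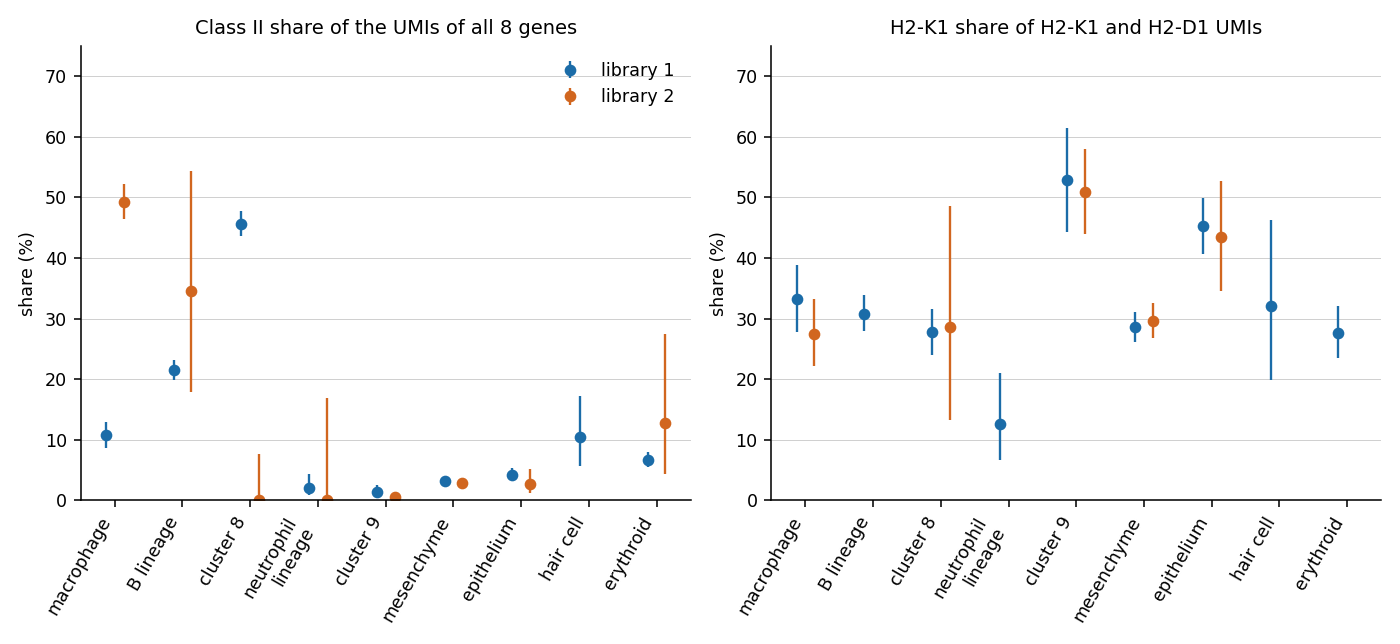
Class II share of the UMIs of the 8 genes, and H2-K1 share of the UMIs of H2-K1 and H2-D1, by cell class and library, in percent with exact binomial 95% intervals; values resting on fewer than 20 UMIs are not drawn. The macrophage class II shares of the libraries (10.7 and 49.3%) do not overlap, and the H2-K1 share of epithelium (45.3 and 43.4%) lies above that of mesenchyme (28.6 and 29.6%).

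Most class II transcripts sat in very few cells. Of 1969 cells, 17 (0.863%) had at least 20 class II UMIs each, and these held 70.7% of all class II UMIs and 3.85% of all class I UMIs. The 17 were chosen by class II count, and as many cells chosen by class I count held 8.84% of the class I UMIs. The share was 69.5% in library 1, from 14 cells, and 73.9% in library 2, from 3 cells. Class I UMIs were seen in 90.0% of cells and class II UMIs in 20.8%. Of the 410 cells with any class II UMI, 331 had 1 or 2. The 17 cells comprised 8 of the B lineage cluster, 4 macrophages, 4 cells of unnamed cluster 8 and 1 mesenchymal cell, which held 30 UMIs of Cd74 and 6 B lineage markers.

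The cell with the most class II RNA belonged to cluster 8 of library 1, a cluster led by Elane, Mpo, Ly6c2 and Prtn3, genes of myeloid precursors. It held 702 class II UMIs in 7011, with 365 of Cd74, 103 of H2-Aa, 131 of H2-Ab1 and 103 of H2-Eb1, and 46 class I UMIs. The dendritic cell markers seen in it were Itgax, an integrin, and Ccr7, a homing receptor. Across cluster 8 of library 1, the 8 cells with 2 or more dendritic cell markers held 1015 of its 1077 class II UMIs. Cells with 702, 215 and 96 class II UMIs held nearly all of these, so the others so marked had almost none. A cluster 8 cell with 0 dendritic cell markers held 51. After the cell with 702 class II UMIs, the next highest was a macrophage of library 2 with 378. It carried all 12 macrophage markers, and also Flt3 and Siglech, which are known from dendritic cells. Another macrophage of library 2 held 136 class II UMIs, with 17 of H2-Aa, 23 of H2-Ab1 and 13 of H2-Eb1. That cell had all 12 macrophage markers and 0 dendritic cell markers.

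Without such cells, the macrophages of the libraries lay closer together. Class II then stood at 589 CPM in library 1 and 871 CPM in library 2, against 737 and 5848 CPM with them. The remaining class II UMIs were nearly all Cd74, with 66 and 69 UMIs, beside 3 and 2 UMIs of H2-Aa, H2-Ab1 and H2-Eb1 together. Class I stood at 6232 and 5849 CPM without them. Per macrophage, the median was 1 class II UMI in library 1 and 5 in library 2, with maxima of 22 and 378. A cell was set aside here by its class II count, so these values are a description of how the total is distributed. Cluster 8 of library 1 had 2226 CPM of class II with its 4 such cells and 28.9 CPM without them.

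**Figure D3:**
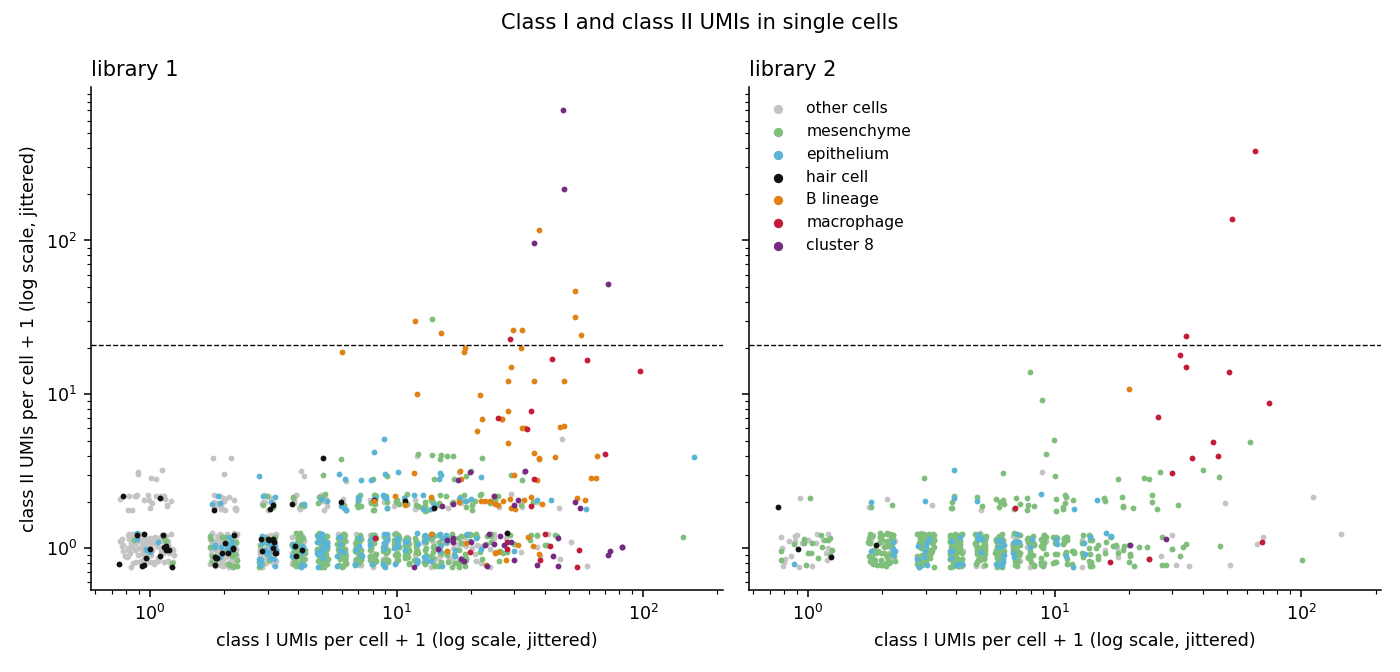
Class I against class II UMIs of each cell, both plus 1 on log scales with points spread slightly so that equal counts can be seen, by cell class and library. The dashed line marks 20 class II UMIs; 17 of 1969 cells lie at or beyond it, among them 8 B lineage cells, 4 macrophages and 4 cells of cluster 8.

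Within the B lineage cells of library 1, both class II and class I differed with the markers of maturation, class II by more in total and Cd74 most of all. H2-Ab1 stood at 275, 99.7 and 383 CPM by later markers (none, 1, 2 or more). By precursor markers (3 or more, 1 or 2, none) it stood at 110, 319 and 468 CPM. The 8 cells with 2 or more markers of later B cells had 2563 CPM of Cd74 and a class II share of 49.3% (exact binomial 95% interval 45.0 to 53.5%). A single cell of these 8 held 116 class II UMIs, 80 of them Cd74. The 44 cells with no later marker had 161 CPM of Cd74 and a share of 14.7%, and the 18 cells with 1 such marker had 179 CPM and 12.9%. Counted by precursor markers, the 25 cells with 3 or more had 71.5 CPM of Cd74 and a share of 8.90%, the 35 cells with 1 or 2 had a share of 23.6%, and the 10 cells with none had 1884 CPM and 40.5%. These precursor marker groups differed in median depth, at 11715, 6704 and 6254 UMIs in turn, and more markers are detected in deeper cells. The groups by later markers (none, 1, 2 or more) were alike in depth, at 7303.5, 7498 and 7271 UMIs. What part depth had was not tested. By precursor markers (3 or more, 1 or 2, none), B2m stood at 1201, 1786 and 1858 CPM, H2-K1 at 338, 455 and 588, H2-D1 at 728, 1097 and 1189 and Tap1 at 38.5, 73.3 and 93.5. By later markers (none, 1, 2 or more), B2m stood at 1624, 1259 and 1569 CPM, without that order. H2-K1 (587 CPM), H2-D1 (1288) and Tap1 (89.3) were highest in the cells with 2 or more later markers. These are cells of 1 library and carry no replicate check. H2-Ab1 was seen in 72.9% of the B lineage cells and Cd74 in 40.0%, so that class II chain transcripts were not limited to cells with detected invariant chain.

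Low class II counts in non-immune cells were compared with erythroid cells, which are not known for class II. In library 1 a Cd74 UMI was seen in 13.2% of erythroid cells (median depth 10683 UMIs), 9.90% of mesenchymal cells (9929), 17% of epithelial cells (13949.5) and 14.6% of hair cells (14000.5). In library 2 the shares were 5.13% (12729), 4.79% (5784), 6.35% (6868) and 0% (9485). With every cell thinned to 2000 UMIs, which left out no cell, the shares were 1.71% in erythroid cells, 1.24% in mesenchyme, 2.27% in epithelium and 2.08% in hair cells of library 1. Most erythroid UMIs were of haemoglobin genes, so fewer of the 2000 were left for other genes in that class. Macrophages kept 47.4 and 68.8% and B lineage cells 24.3%. Cd74 in mesenchyme, epithelium and hair cells was thus at the level of the erythroid background and was not read as expression.

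Other immune RNA was spread through the same cells. UMIs of the macrophage genes C1qa, C1qb and C1qc were seen in 18.8 to 22% of hair, mesenchymal, epithelial and erythroid cells of library 1. Cells with UMIs of 2 or more macrophage, B lineage or dendritic cell markers numbered 110 of 485 in mesenchyme, 44 of 176 in epithelium and 10 of 48 in hair cells of library 1. Without them, a Cd74 UMI was seen in 6.93% of the mesenchymal, 14.4% of the epithelial, 11.8% of the erythroid and 5.26% of the hair cells of library 1. In library 1 there were 0.377 to 0.667 Cd74 UMIs per C1q UMI in these 4 classes, against 0.0385 in macrophages. In library 2 there were 0.301 in mesenchyme, 0.833 in epithelium and 0.25 in erythroid cells, against 0.261 in macrophages, so the gap was not seen in both libraries. What part other immune cells had in this was not tested.

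For class I no class served as an empty background, since erythroid precursors can carry it. Thinned to 2000 UMIs, a B2m UMI was seen in 56.5 and 59.0% of mesenchymal cells, 46.6 and 46.0% of epithelial cells, 20.8 and 12.8% of erythroid cells, and 10.4 and 0% of hair cells. The erythroid shares are again lowered by the haemoglobin UMIs. H2-K1 was seen in 0 of 48 thinned hair cells of library 1. Class I in hair cells was therefore at or below the erythroid level by this measure, and expression at a low level could not be told apart from free RNA.

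Contrasts between classes were tested on summed counts per library with edgeR's quasi-likelihood test, with the library as a block and p-values adjusted by Benjamini and Hochberg over 4982 genes that took no part in the clustering. A gene was called at an adjusted p under 0.05. B lineage cells had 1 cell in library 2 and were left without a test. H2-Aa and H2-Eb1 did not pass the filter on low counts. Tap1 and Cd74 reached its limit of 16.1 CPM in the macrophage sums only, and H2-Ab1 in the macrophage sums and a hair cell sum with 1 UMI, so their macrophage calls had to come out high and add nothing to the values above. Among the listed partner genes, the same held for Psmb9, Ctss, H2-DMa, H2-M3, Spi1, Irf8, Cd83, Cd86 and Gbp3, whose macrophage values are given as a description.

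Macrophages had far more class I RNA than mesenchyme or epithelium. Against mesenchyme, the log2 fold change of B2m was 3.04 ± 0.43 (SE, 2 libraries a class; edgeR adjusted p = 4.76e-11), with 3.20 and 2.88 in the single libraries. For H2-D1 it was 3.56 ± 0.43 (edgeR adjusted p = 7.51e-15) and for H2-K1 3.66 ± 0.40 (edgeR adjusted p = 1.54e-18). Tap1 gave 2.31 ± 0.64. The median of B2m, H2-K1 and H2-D1 was 3.56, beside -0.43 for all genes tested. B2m, H2-K1 and H2-D1, which passed the filter in other classes too, were all 3 called higher, in a contrast in which 9.78% of genes were. Cd74 gave 7.61 and H2-Ab1 6.39, with 5.80 and 8.66 for Cd74 and 2.60 and 7.17 for H2-Ab1 in the single libraries, the spread described above. When classes were set by a marker gate on each cell, Cd74 and H2-Ab1 lost their calls (edgeR adjusted p = 0.066 and 0.092). With each gene's own spread in place of the shared one, B2m and H2-D1 did (adjusted p = 0.073 and 0.055).

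Against epithelium, macrophages had log2 fold changes of 3.24 for B2m, 3.05 for H2-K1, 3.91 for H2-D1 and 3.23 for Tap1, and the median of the first 3 was 3.24 beside -0.35 for all genes. Those 3 were again called higher, where 11.3% of genes were. B2m missed the threshold with its own spread (adjusted p = 0.066), and Cd74 and H2-Ab1 with the marker gate (0.072 and 0.11).

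The partners of these genes in macrophages covered both routes. Of 10 peptide loading genes of class I that passed the filter in other classes too, 4 were higher than in mesenchyme and none lower, with a median of 1.03. Among them were the immunoproteasome subunits Psmb8 (3.21 on the log2 scale) and Psmb10 (1.39), and the subunit Psmb9 gave 3.66. With each gene's own spread 3 of those 4 calls were lost. Of 3 such genes of class II loading, 3 were higher, with a median of 3.19. Ctss, the protease that trims the invariant chain, gave 8.81, from 2639 and 3039 CPM in macrophages against 5.45 and 6.13 in mesenchyme. Lgmn, an endosomal protease, was higher by 5.68, and H2-DMa, a chain of the class II peptide editor, gave 5.21. So macrophages of library 1, with 3 UMIs of the class II chains, had 219 CPM of H2-DMa beside 173 in library 2.

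Of 4 non-classical or additional class I chains that passed the filter in other classes too, H2-T23 (2.76) and H2-Q4 (1.58) were higher in macrophages than in mesenchyme, and H2-M3 gave 4.47. Own spreads ended 2 of these 3 calls. Of 5 such regulators 1 was higher. Spi1 (7.39) and Irf8 (4.64), transcription factors of myeloid cells, stood at 470 and 567 CPM and at 283 and 337 CPM in macrophages, against at most 2.98 and 12.3 CPM in mesenchyme. Ciita, the master regulator of class II transcription, had 0 UMIs in macrophages of both libraries, where 3 counts over the group would be 13.2 CPM. B lineage cells of library 1 had 4.22 CPM (3 UMIs), so the macrophage zeros cannot be read as absence. The co-stimulatory genes Cd86 and Cd83 gave 8.88 and 3.12, and Icosl was not called. Of 13 interferon response genes that passed the filter in other classes too, 8 were higher, led by Cxcl10 (6.05), Bst2 (4.52) and Ifit3 (2.46), and Ifitm3 was lower (-1.28). With own spreads, 8 of the 9 higher calls of the whole list were lost, among them Cxcl10. Cxcl10 in macrophages came from library 2 alone, with 0 and 135 CPM. Against epithelium, and over the genes that passed the filter in other classes too, macrophages were higher in 5 of 10 peptide loading genes, led by Psmb8 (6.32), in 2 of 3 class II loading genes, 2 of 4 additional class I chains, 2 of 5 regulators, 1 of 1 co-stimulatory gene and 8 of 13 interferon response genes. None of these lists had a lower call there. Own spreads ended 8 of all 9 interferon calls of this contrast, 2 of 4 regulator calls, 1 of 3 chain calls and 1 of 6 peptide loading calls. H2-DMb1 was the class II loading gene not called.

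None of the 6 genes in the fit passed the test between epithelium and mesenchyme, while several genes of the machinery around them did. B2m differed by -0.20 ± 0.40 on the log2 scale (SE; edgeR adjusted p = 0.735), H2-K1 by 0.61 ± 0.37 (0.190), H2-D1 by -0.35 ± 0.40 (0.531) and Tap1 by -0.92 ± 0.52 (0.163), epithelium minus mesenchyme. The class I median was -0.28 beside -0.06 for all genes. For Tap1 and H2-K1 the libraries of the classes did not overlap in CPM, though neither passed the test. The contrast called 18.8% of genes higher and 19.1% lower. These errors leave room for differences of about the size of the H2-K1 and Tap1 estimates.

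The immunoproteasome was lower in epithelium. Psmb8, a subunit that replaces its constitutive counterpart under interferon, was counted at 4.53 and 2.05 CPM in epithelium and 32.0 and 33.8 in mesenchyme. Its log2 fold change was -3.11 ± 0.45 (SE; edgeR adjusted p = 3.41e-11). Psmb10 stood at 12.1 and 10.3 CPM against 37.2 and 43.3 (-1.89) and Psmb9 at 3.02 and 2.05 against 9.34 and 12.7 (-1.97). Libraries of the classes did not overlap for any of the 3 subunits. Tap2, the partner of Tap1, was lower as well (-1.16), so that 4 of 11 tested peptide loading genes were lower, and only Psmb9 lost its call with its own spread (adjusted p = 0.052). Psmb8 stood at 0 to 5.6 CPM in the epithelial clusters, except for 38.2 CPM in cluster 20 of library 1, and at 20.4 to 62.4 CPM in the mesenchymal clusters.

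Irf1, a transcription factor that drives class I genes and the immunoproteasome under interferon, was lower as well. It stood at 8.31 and 8.21 CPM in epithelium against 38.5 and 85.6 in mesenchyme, a log2 fold change of -2.66 ± 0.38 (SE; edgeR adjusted p = 3.01e-11). Of 7 tested regulators it alone was called. Ifi30, a lysosomal reductase of the class II route (-2.25), H2-T22, a non-classical chain (-1.19), and Icosl, a co-stimulatory ligand (-3.03), were lower too. The interferon response list split, with 4 of 14 tested genes higher and 4 lower and a median of -0.81. The 3 with the largest falls were Ifitm3 (-3.90), Ifit3 (-1.89) and Socs1 (-1.87), and the 3 largest rises were Cxcl10 (5.35), Isg15 (2.00) and Bst2 (1.49). Only Ifitm3 kept its call with its own spread, and Cxcl10 was at 0 CPM in epithelium of library 1 and 98.5 in library 2, where a single cell of cluster 10 held all 48 of its UMIs.

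Another 3 genes of the machinery went the other way. H2-DMb1, a beta chain of the class II peptide editor, was counted at 71.4 and 61.6 CPM in epithelium, as much as the 64.8 and 76.9 in macrophages, and at 7.39 and 6.76 in mesenchyme. Its log2 fold change between epithelium and mesenchyme was 3.11 ± 0.35 (SE; edgeR adjusted p = 8.79e-18), and no alternative ended the call. All 5 epithelial clusters had it, at 28.1 to 119 CPM in library 1 and 40.5 to 88.9 CPM in library 2, against 0 to 10.3 CPM in the mesenchymal clusters. Its alpha chain partner did not accompany it, as H2-DMa stood at 5.66 and 4.11 CPM in epithelium and 4.54 and 5.28 in mesenchyme. H2-DMb1 (chr17:34153072-34160230) is adjacent to its near copy H2-DMb2 (chr17:34143307-34151555), counted at 0.755 and 0 CPM in epithelium. How reads shared by the copies bear on these counts was not tested.

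H2-T23, a non-classical class I chain known as Qa-1, was at 51.7 and 37.0 CPM in epithelium against 9.60 and 10.8 in mesenchyme (log2 fold change 2.13 ± 0.33, SE; edgeR adjusted p = 1.04e-09). Tapbp, or tapasin, which holds class I molecules at the peptide transporter, was at 232 and 152 CPM against 63.9 and 76.3 (1.36 ± 0.34; edgeR adjusted p = 0.000279). Both calls held under every alternative run. In the epithelial libraries Tapbp thus stood at or near the level of macrophages, 170 and 192 CPM, while Psmb8 stood at 348 and 308 CPM in macrophages.

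**Figure D4:**
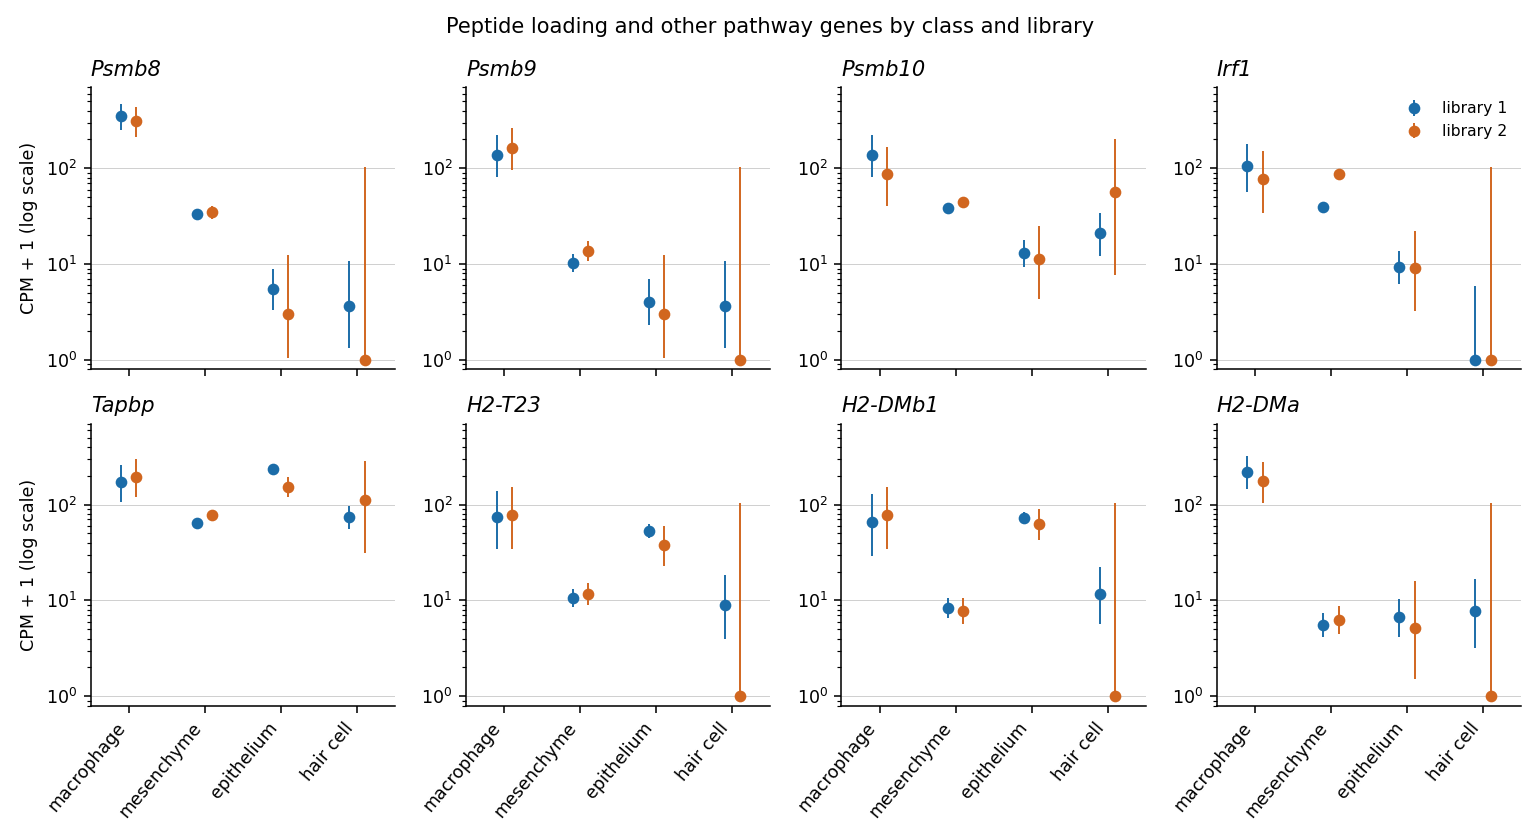
Levels of 8 genes that work with the class I or class II molecules, in macrophages, mesenchyme, epithelium and hair cells. The vertical axis is CPM plus 1 on a log scale, each point is a library, and bars are exact Poisson 95% intervals that cover counting error only. Epithelium lies below mesenchyme for Psmb8, Psmb9, Psmb10 and Irf1 and above it for Tapbp, H2-T23 and H2-DMb1.

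Hair cells had the least class I RNA of the classes tested. Epithelial cluster 12 of library 1 came near, with 206 CPM of summed class I, against 149 CPM in hair cells of that library. Relative to mesenchyme, B2m had a log2 fold change of -3.03 ± 0.50 (SE; edgeR adjusted p = 1.23e-08), H2-D1 of -1.94 ± 0.51 (0.000512), H2-K1 of -1.48 ± 0.53 (0.0141) and Tap1 of -3.11 ± 1.13 (0.0170). In library 1 alone, with 48 hair cells, the differences were -2.57, -1.57, -1.30 and -2.17. The median of the 4 was -2.49 beside -0.23 for all genes. Of the 6 genes in the fit, 4 were called lower, where 23% of genes were, and Cd74 and H2-Ab1 were not called. Only Tap1 kept its call with its own spread (adjusted p = 0.031), with B2m at 0.053, H2-D1 at 0.17 and H2-K1 at 0.18. Tap1 had 1 and 0 UMIs in hair cells, and its own spread was 0.446, below the 1.17 used in the fit. DESeq2 called B2m and H2-D1 but neither H2-K1 nor Tap1 (adjusted p = 0.076 for each).

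Relative to epithelium, the tissue that surrounds them, hair cells had lower B2m (-2.83 ± 0.50, SE; edgeR adjusted p = 3.01e-07), H2-K1 (-2.09 ± 0.53; 0.000688) and H2-D1 (-1.59 ± 0.51; 0.0105). Tap1 gave -2.19 ± 1.30 (edgeR adjusted p = 0.217). Thus 3 of 6 genes were called lower, where 15.2% of genes were. All 3 calls were lost with each gene's own spread (adjusted p = 0.11 for B2m, 0.13 for H2-K1 and 0.31 for H2-D1). DESeq2 lost H2-D1 (0.15).

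The class I machinery was low in hair cells too. Of 11 tested peptide loading genes, 7 were lower than in mesenchyme and none higher, with a median of -1.30. They included Psmb8 (2.68 and 0 CPM in hair cells, log2 fold change -3.96), Tap2 (2.68 and 0 CPM, -3.83) and Psme1 (17.4 and 55.5 CPM, -2.50), a subunit of the proteasome activator. Their own spread ended 2 of the 7 calls. Calr and Canx, chaperones that serve all glycoproteins, stood at 476 and 250 CPM and at 302 and 333 CPM in hair cells, above the 177 and 206 and the 119 and 103 of mesenchyme in these libraries. They were not called. Of 5 tested additional class I chains, H2-Q4 (-4.19) and H2-T22 (-2.81) were lower. The list's median was -2.81, or -0.61 with the chain at 0 UMIs in hair cells set to a bound from both libraries pooled.

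Irf1 had 0 UMIs in the 52 hair cells of both libraries, where 3 counts over the group would be 3.84 CPM, against 56.4 CPM in mesenchyme. With the libraries pooled, this floor lies 14.7-fold below mesenchyme. Hair cells had 745343 UMIs in library 1 and 36019 in library 2, while Irf1 in mesenchyme stood at 38.5 and 85.6 CPM. The pooled folds here are therefore not minimum folds within a library. The same pooled floor lies 6.64-fold below mesenchyme for Socs1, an inhibitor of cytokine signalling, and 5.86-fold for Iigp1, an interferon-induced GTPase. For Icosl it lies 4.71-fold below, for Ifit3 4.12-fold and for Cd83 2.87-fold. Irf8 (-2.40) was the other of 7 tested regulators called, and it lost the call with its own spread (adjusted p = 0.077). Of 14 tested interferon response genes 7 were lower than in mesenchyme and 1, Ifit1 (1.19), was higher. The list's median was -2.40, or -2.17 with 4 genes at their pooled floor. All but Ifitm3 (-4.71) lost their calls with their own spread. Ifi30 (-2.70) alone of 5 tested class II loading genes was called, and it was lower. Against epithelium, 6 of 11 peptide loading genes, 2 of 5 additional class I chains and 6 of 14 interferon response genes were lower and none of these higher, where 15.2% of genes were called lower. Own spreads ended 5, 2 and 6 of these calls in turn. In this contrast H2-DMb1 had a log2 fold change of -2.93, at 10.7 and 0 CPM in hair cells.

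The mix of the heavy chains differed between epithelium and mesenchyme. H2-K1 made up 45.3% of the UMIs of H2-K1 and H2-D1 in epithelium of library 1 (exact binomial 95% interval 40.7 to 49.9%) and 43.4% in library 2 (34.5 to 52.7%). In mesenchyme it made up 28.6% (26.2 to 31.1%) and 29.6% (26.8 to 32.5%). The intervals of the 2 classes did not overlap in either library, and they cover counting error only, with no test over samples. Macrophages had 33.2 and 27.4%, B lineage cells 30.8% and erythroid cells of library 1 27.6%, near mesenchyme. Neutrophil lineage cells of library 1 were at the low end with 12.6% (6.70 to 21%). Hair cells of library 1 had 32.1% (19.9 to 46.3%), an interval that spans mesenchyme and most of epithelium.

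The share was not uniform inside the classes. Cluster 16 of mesenchyme had 16.1 and 20.0%, and the other mesenchymal clusters had 27.0 to 34.0%. Epithelial cluster 12 had 57.5% in library 1 and was unusual in holding 0.54 UMIs of B2m per cell beside 1.5 of H2-K1. The 2 heavy chain genes are related in sequence. Of the 50-base words of the H2-K1 transcript 6.94% occur in H2-D1, and of those of H2-D1 5.31% occur in H2-K1, but 0.443% of either in the last 500 bases. Which end of the transcript was read is not stated in the labels, and how shared reads bear on the mix was not tested.

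Genes with the most similar course over the 12 class sums were looked up among 4657 held-out genes, as a description. For the summed class I genes they were Cdc42 (Pearson r = 0.947 of log2 CPM over 12 sums of 6 classes), Arpc5 (0.919), Psme2 (0.905), Cuedc2 (0.900) and Clic1 (0.898). Cdc42 encodes a small GTPase of the actin skeleton, Arpc5 a subunit of the actin-nucleating Arp2/3 complex and Psme2 a subunit of the proteasome activator. For the summed class II genes they were Ctss (0.965), Lyz2 (0.961), Lst1 (0.952), Spi1 (0.949) and Irf8 (0.944), genes known from myeloid cells. The sums of a library share its depth and its free RNA, and the class II order rests on the macrophage sums.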

How the data were processed

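The 8 genes and every other list were chosen with earlier results of these data known. The deposited count tables give raw UMIs for every gene in every barcode as the authors' pipeline left them; the submitters' processing notes name Cell Ranger 2.1.0 and mm10. The tables held 1610 and 720 barcodes with 20212520 and 7094752 UMIs. Scrublet (expected rate 2%) marked 2 and 4 doublets (0.150 and 0.621%), which were removed.

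Cells were clustered with scanpy 1.11.5 (Leiden, resolution 1.0, 30 principal components, 15 neighbours, seed 0) on markers and genes with an odd identifier checksum, 2022 in all. The remaining genes, all listed genes among them, were held out. To be named, a cluster needed 3 raised markers that made up 50% or more of their list (log2 fold over the other clusters 1 or more, with 10 CPM added, in 10% of cells). These naming thresholds were set after a first clustering was seen. Sums per class and library were fitted over 6 classes (12 sums, 10157 genes after filterByExpr with a minimum count of 10) in edgeR 4.0.16 with TMM factors and the library as a block. The block is used because the class sums of a library share that library, prepared and sequenced together. DESeq2 1.42.0 was an alternative. For 87.8% of genes edgeR took the spread from all genes, so a fit with each gene's own spread (5 residual degrees of freedom) was added after the data were seen.

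Named are the 8 genes, up to 3 called genes of each list and direction with the largest fold change, all genes of short lists, and the 5 genes most correlated with each route. Other genes were named after their values were seen: Ciita, Calr, Canx, H2-DMb2, Ifitm3 in hair cells, H2-DMb1 and, for the low-count filter, Gbp3 in macrophages, and Tap2 and H2-DMa in the comparison of epithelium with mesenchyme. Shares carry exact 95% intervals for counting error.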

Additional observations from a re-analysis of the deposited data

How the results depend on the processing

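Of 336 values of single genes under other settings, 318 kept direction and side of the threshold, 18 lost the call and 0 reversed. That count leaves out the values of these genes with a library left out, which carry no test. Of those, 36 stayed the same by the rule used and 24 moved. Without the replicate block, which ignores the pairing of classes by library, 6 of the genes were called for macrophages against mesenchyme, 6 against epithelium, 0 for epithelium against mesenchyme, and 4 and 3 for hair cells, the same counts as with it. For hair cells against mesenchyme, 2 of 4 genes stayed called with DESeq2 and 1 with each gene's own spread, and against epithelium 0 of 3 did with the latter. Hair cells could not be fitted with the stricter cell filter or with classes of at least 10 cells.

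Counts over all genes, higher and lower, depended on the genes adjusted over and on the spread. For macrophages against mesenchyme they were 487 and 609, became 1000 and 1267 when adjusted over all genes in the fit, and 260 and 168 with own spreads. DESeq2 gave 288 lower and the marker gate 378. For macrophages against epithelium, 561 and 684 became 1129 and 1362, and 284 and 133 with own spreads, with 345 lower in DESeq2. For epithelium against mesenchyme, 936 and 954 became 1866 and 1913, and 601 and 617. For hair cells against mesenchyme, 919 and 1144 became 1837 and 2299, with 754 lower by own spreads. For hair cells against epithelium, 559 and 759 became 1103 and 1501, and 252 and 168, with 420 lower in DESeq2.

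The class II share of mesenchyme, 3.03%, was 2.65% without doublet removal, 2.67% at resolution 2.0, 2.41% with the marker gate, 2.01% without mixed cells and 4.67% over class II and heavy chains alone. That of B lineage cells was 19.6% with the gate. The H2-K1 share of mesenchyme, 29.1%, was 31.8% without doublet removal and 31.8% with the gate, and that of epithelium 43.0% with the gate. The thinned Cd74 share became 38.7% in macrophages and 0.745% in mesenchyme at 1000 UMIs, and Cd74 was seen in 5.26% of hair cells without mixed cells. The cause of these shifts was not tested.

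With a library left out, the small classes of library 2 set the range. In B lineage cells the class II share ran from 21.5 to 34.5%, the H2-K1 share from 22.2 to 30.8%, the Cd74 share of cells from 40.0 to 100% and the thinned one from 24.3 to 100%. In hair cells these ran from 10.5 to 50%, from 32.1 to 100%, from 0 to 14.6% and from 0 to 2.08%.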

Other observations

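Unnamed cluster 9 (52 and 35 cells), with 9 of 12 mesenchyme markers raised, had class I at 823 and 1743 CPM and class II at 11.1 and 10.7 CPM. Its H2-K1 share was 52.9 and 51%, above the shares of mesenchyme and of epithelium in both libraries. Melanocyte-like cells had class I at 2087 CPM in library 1 (2 cells) and 1181 CPM in library 2 (19 cells), and 0 class II UMIs in either.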
